A study of Mus musculus with 4 samples.

Results

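The 10 genes described here encode the peptide hormones of the gut's enteroendocrine cells (Gcg, Pyy, Cck, Sst, Ghrl, Gip, Nts, Sct and Insl5) and chromogranin A (Chga), a protein of their secretory granules. They were found among the array's probes through the RefSeq accession of each probe, which gave 1 probe for each of the 10 genes, out of 21648 genes and unnamed transcripts tested. All 10 were well above background on all 4 arrays and passed the filter on dim probes. The samples were ileal total RNA of male C57BL/6J mice, 10 weeks old, with 2 control samples and 2 samples from mice given metformin by mouth at 1000 mg/kg. Metformin is a biguanide that lowers blood glucose, and the ileum is the last part of the small intestine. The labels give no vehicle and no length of treatment, and do not state whether each sample was a different mouse, so the p-values reflect no more than how far these samples differ, some of which may be technical.

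Enteroendocrine cells are scattered, rare cells of the gut epithelium that sense the gut's contents and release hormones into blood and tissue. Each cell makes a few hormones, and the mix changes along the gut. Gip, Cck, Sct and Ghrl are known chiefly from the stomach and proximal small intestine, Gcg, Pyy and Nts from the ileum and colon, and Insl5 from the colon. Each hormone is made as a longer precursor that convertases cut to the active peptide, and chromogranins help to pack it into granules. In RNA of a whole tissue piece, fewer enteroendocrine cells and less hormone RNA per cell cannot be told apart.

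Values are log2 signals relative to the 75th percentile of the array's non-control probes, so that 1 unit is 2-fold and 0 is that percentile. Where 2 values are given for a group, sample 1 comes first. Signals of different probes cannot be set against each other, and each gene is compared only with itself. Between 65.2% and 69.1% of probes were well above background, and no spot was saturated. The library labelled metformin 1 stood apart in genes that mark position along the intestine. Fabp6, which carries bile acids in ileal enterocytes, read 8.94 and 8.29 in the controls, and 4.16 and 8.69 with metformin. Relative to the control mean, the median of the 10 proximal small intestine markers was 2.35 in metformin 1 and -0.56 in metformin 2. The difference of each hormone gene is therefore given with and without metformin 1. Without it 1 metformin sample is left, and the SE of that difference assumes that this sample varies like the controls. Control 1 also stood apart, in smooth muscle markers. Cnn1, a contractile gene, read 4.90 and 0.39 in the controls, and -1.09 and 0.12 with metformin. Ranges over leaving out each sample in turn, the controls included, are given at the end. The arrays shared 1 slide and 1 scan, with the controls at positions 1 and 2 and the metformin samples at 3 and 4, so that position and treatment cannot be told apart.

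The upstream sequences of 4 of the genes are shown as examples, and no array result rests on these sequences. Gcg and Gip lay on opposite sides of the control mean in metformin 1. Cck and Sst had metformin values that did not overlap the controls, as did Ghrl, whose sequence is not shown. Each run is the 250 bases upstream of the annotated transcription start, 5′ to 3′ in the direction of the gene, from RefSeq's annotation of build GRCm38.p6, whose table held all 10 genes. The Gcg window is chr2:62483654-62483903, minus strand. The Gip window is chr11:96024295-96024544, plus strand. The Cck window is chr9:121495695-121495944, minus strand, and the Sst window is chr16:23890845-23891094, minus strand. Capitals mark exact matches, on either strand, to 5 motifs. The core promoter motif searched was TATAAA, the TATA box. For the cyclic AMP response element the search used its core TGACG. For the E-box of the kind bound by Neurod1 and Neurog3 it used CAGATG. The letters for GATA factors, which help set up intestinal genes, were AGATAA. For the intestinal CDX factors they were TTTATT.
Gcg: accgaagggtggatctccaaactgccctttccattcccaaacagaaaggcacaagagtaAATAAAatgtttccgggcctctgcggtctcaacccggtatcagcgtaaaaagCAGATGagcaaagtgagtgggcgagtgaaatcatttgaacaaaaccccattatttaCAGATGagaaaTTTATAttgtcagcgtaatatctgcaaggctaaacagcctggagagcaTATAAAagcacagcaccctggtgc
Gip: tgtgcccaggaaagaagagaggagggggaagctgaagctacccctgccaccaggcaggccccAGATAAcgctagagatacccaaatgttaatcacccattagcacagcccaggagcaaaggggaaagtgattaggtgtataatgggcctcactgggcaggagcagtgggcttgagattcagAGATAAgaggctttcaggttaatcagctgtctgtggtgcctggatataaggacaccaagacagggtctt
Cck: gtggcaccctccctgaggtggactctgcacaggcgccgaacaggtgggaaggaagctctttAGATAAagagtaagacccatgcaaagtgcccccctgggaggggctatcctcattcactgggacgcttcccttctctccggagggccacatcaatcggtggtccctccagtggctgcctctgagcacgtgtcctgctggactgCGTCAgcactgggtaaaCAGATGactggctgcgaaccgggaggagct
Sst: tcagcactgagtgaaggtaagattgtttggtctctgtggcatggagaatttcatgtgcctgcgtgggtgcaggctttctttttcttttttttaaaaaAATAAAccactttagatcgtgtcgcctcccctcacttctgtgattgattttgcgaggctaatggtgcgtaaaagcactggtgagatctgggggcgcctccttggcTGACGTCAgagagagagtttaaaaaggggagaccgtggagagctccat

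The Gcg window held 2 E-boxes, a TATA box on each strand and a CDX site, whereas the Gip window held 2 GATA sites and none of the other motifs. In the Sst window a pair of overlapping cores on opposite strands formed the full palindrome of the cyclic AMP response element. It began 48 bases upstream of the start, and the Cck window held 1 core at nearly the same place, 47 bases upstream. Chga, whose metformin values overlapped the controls, also held 1 core there, 44 bases upstream. Ghrl, which like Cck and Sst had no overlap, held none of the motifs. Any link between the motifs and the array values was not tested. Over the 32851 promoter windows in the RefSeq table, 17.8% held the core of the cyclic AMP response element, 14.4% the E-box, 12.4% the TATA box, 9.99% the GATA site and 18.1% the CDX site. Of the 10 genes, 4 held that core in at least 1 listed window (Cck, Sst, Nts and Chga), 4 the E-box (Gcg, Cck, Sct and Insl5), 4 the GATA site (Cck, Gip, Nts and Insl5), 3 the TATA box (Gcg, Sct and Insl5) and 2 the CDX site (Gcg and Sst). The shares are per window, while the 10 genes had 15 listed windows, so that counts of genes and shares of windows are not on the same footing. Such matches describe the letters only and say nothing of which factor is bound.

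None of the 10 genes passed the test for a difference between metformin and control. In limma's fit over all 21648 genes the Benjamini-Hochberg adjusted p was 0.999999 for each of them, and 0 genes of the whole table passed (0% in each direction). None of the 10 reached an unadjusted p under 0.05, which 1.6% of all genes did (347 genes). A trended, robust prior also called 0 genes, with 289 at an unadjusted p under 0.05. The fitted differences ran from -0.17 for Gcg to 1.05 for Gip, with 8 of 10 above 0 and a median of 0.33. That median was 0.18 with quantile normalization, 0.11 in the authors' deposited table as it stood and -0.05 without metformin 2. Over all genes 57.6% of differences were above 0 and the median was 0.06. In 3 of the 10 genes (Cck, Sst and Ghrl) both metformin values lay above both control values, which held for 12.3% of all genes tested. In 0 of the 10 did both lie below, against 8.57% of all genes. None of the 10 was at least 2-fold apart without overlap, where 0.628% of all genes were higher and 2.32% lower by that measure. With control 1 left out 5 of the 10 were higher without overlap (42.6% of all genes) and 0 lower (25.2%), and with control 2 left out likewise 5 (24.6%) and 0 (25.1%). With metformin 1 left out there were 9 higher (28%) and 0 lower (22%), and with metformin 2 left out 4 higher (42.7%) and 3 lower (31.7%). The count of 3 higher genes was thus 9 without metformin 1, and the 3 lower ones, Gcg, Pyy and Insl5, appeared where metformin 1 alone stood for its group. The 95% interval of each of the 10 genes included both 0 and a 2-fold higher level with metformin, so that these samples do not show equal levels. With 2 samples against 2, an exact permutation test of a single gene cannot give a two-sided p below 0.333.

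**Figure D1:**
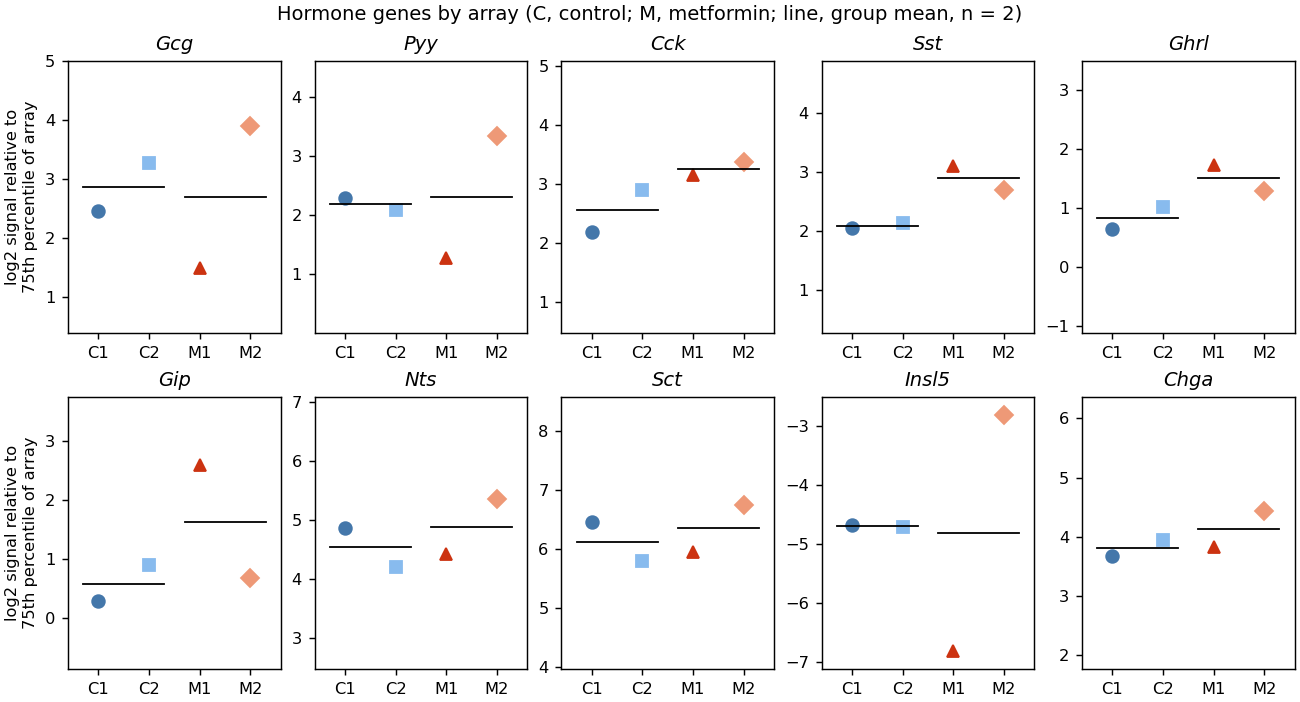
Log2 signal, with the 75th percentile of the array at 0 (y axis, each panel spanning the same number of log2 units) for each hormone gene on the 4 arrays (x axis), with black lines at the group means. Gcg, Pyy and Insl5 were lowest in metformin 1 and highest in metformin 2, Gip stood out in metformin 1, and Cck, Sst and Ghrl had both metformin values above both controls.

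Gcg, whose precursor is cut to the incretin GLP-1 and to GLP-2 in the gut, read 2.47 and 3.27 in the controls, and 1.50 and 3.90 with metformin. The metformin samples lay on either side of the controls, 2.40 apart, while their mean differed from that of the controls by -0.17 (SE 0.89). Without metformin 1 the difference was 1.03 (SE 0.57). The Gcg probe was printed as 10 spots on each array, and the SD between these spots was 0.053 to 0.068, far below the gaps between arrays. Pyy, a hormone of the same L cells that slows the gut and curbs appetite, read 2.28 and 2.09 in the controls, and 1.27 and 3.34 with metformin. Its controls agreed within 0.19, whereas its metformin values were 2.07 apart. The fitted difference of Pyy was 0.12 (SE 0.75), or -0.15 in the authors' deposited table as it stood, and 1.15 (SE 0.51) without metformin 1.

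Insl5, an orexigenic peptide of colonic L cells, had the widest range of the 10 genes, 15.9-fold between the lowest and the highest array. Its spots were dim, with processed signals of 35.7 and 55.1 units in the controls, and 7.74 and 152 with metformin. On the log2 scale these were -4.68, -4.72, -6.81 and -2.82. The controls were nearly equal and the metformin samples lay on opposite sides of them, for a difference of -0.11 (SE 1.37), or 1.89 (SE 0.51) without metformin 1. The latter SE takes no account of the 3.99 between the metformin samples. With normexp background correction the difference of Insl5 was 0.45, and it was 0.35 in the authors' deposited values once scaled, 0.09 in those values as they stood and 0.02 with median scaling, so it has no settled sign. Nts, which encodes neurotensin and is made by N cells of the ileum, read 4.87 and 4.21 in the controls, and 4.43 and 5.35 with metformin. The lower metformin value lay between the controls, and the difference was 0.35 (SE 0.47), or 0.81 (SE 0.55) without metformin 1.

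Gip, the incretin of proximal K cells, read 0.28 and 0.89 in the controls, and 2.59 and 0.68 with metformin. Metformin 1 alone was high, while metformin 2 lay between the controls. The difference of Gip was 1.05 (SE 0.73), and 0.09 (SE 0.55) without metformin 1. Cck, which stimulates gallbladder contraction and pancreatic secretion, read 2.20 and 2.91 in the controls, and 3.15 and 3.37 with metformin. The groups did not overlap, but control 2 and metformin 1 lay closer together than the controls did. The difference of Cck was 0.70 (SE 0.37), or 1.63-fold, with a 95% interval of -0.29 to 1.69, and 0.81 (SE 0.56) without metformin 1. It was 0.35 without control 1 and 1.06 without control 2.

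Ghrl, the precursor of ghrelin, a hunger hormone made chiefly in the stomach, read 0.65 and 1.02 in the controls, and 1.72 and 1.29 with metformin. The groups did not overlap, and the difference was 0.67 (SE 0.33), with a 95% interval of -0.22 to 1.56. Without metformin 1 it was 0.46 (SE 0.52). Sct, which encodes secretin, the signal for pancreatic bicarbonate, read 6.47 and 5.80 in the controls, and 5.96 and 6.75 with metformin. The values of both groups were interleaved, with a difference of 0.22 (SE 0.44), or -0.07 in the authors' deposited table as it stood. Without metformin 1 it was 0.62 (SE 0.56).

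Sst, which encodes somatostatin, the peptide of D cells that restrains the release of other gut hormones, had the smallest unadjusted p of the 10 genes. It read 2.05 and 2.14 in the controls, and 3.11 and 2.69 with metformin. Both metformin values were above both controls, and the gap between the groups was wider than the gap within either. The mean was 2.09 ± 0.07 in controls and 2.90 ± 0.29 with metformin (SD, n = 2). The difference was 0.81 (SE 0.31), or 1.75-fold, with a 95% interval of -0.02 to 1.63. Its unadjusted p in limma's fit was 0.0533, and the adjusted p was 0.999999. Without metformin 1 the difference was 0.60 (SE 0.51). The Sst probe also had 10 spots, with an SD between spots of 0.040 to 0.053. Sst was the only one of the 10 genes whose groups were still free of overlap in the authors' deposited table as it stood, in which Cck and Ghrl overlapped.

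**Figure D2:**
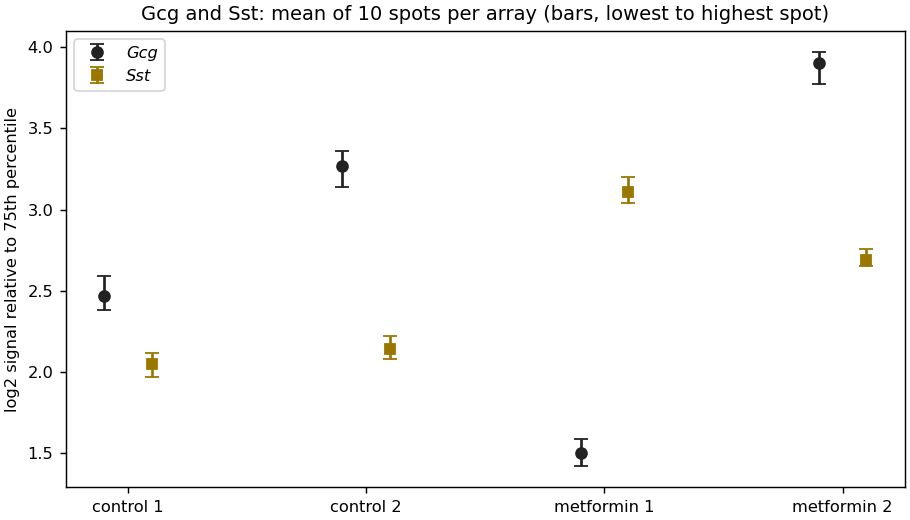
Mean of the 10 spots of the Gcg probe and of the Sst probe on each array (y axis, log2 signal relative to the 75th percentile; x axis, array), with bars from the lowest to the highest spot. The spots of an array lie within a narrow band, and the arrays differ by much more than the spots do, except the controls for Sst.

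Chga, the granule protein shared by most enteroendocrine cells, varied least of the 10 genes. It read 3.68 and 3.95 in the controls, and 3.83 and 4.44 with metformin, a range of 1.69-fold. Metformin 1 lay between the controls, and metformin 2 lay above them. The difference of Chga was 0.32 (SE 0.35), and 0.62 (SE 0.52) without metformin 1. Where Chga in metformin 1 was 0.01 above the control mean, Gcg was at -1.37, Pyy at -0.92 and Insl5 at -2.10 relative to theirs, whereas Gip was 2.01, Sst 1.01, Ghrl 0.88 and Cck 0.59 above.

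**Figure D3:**
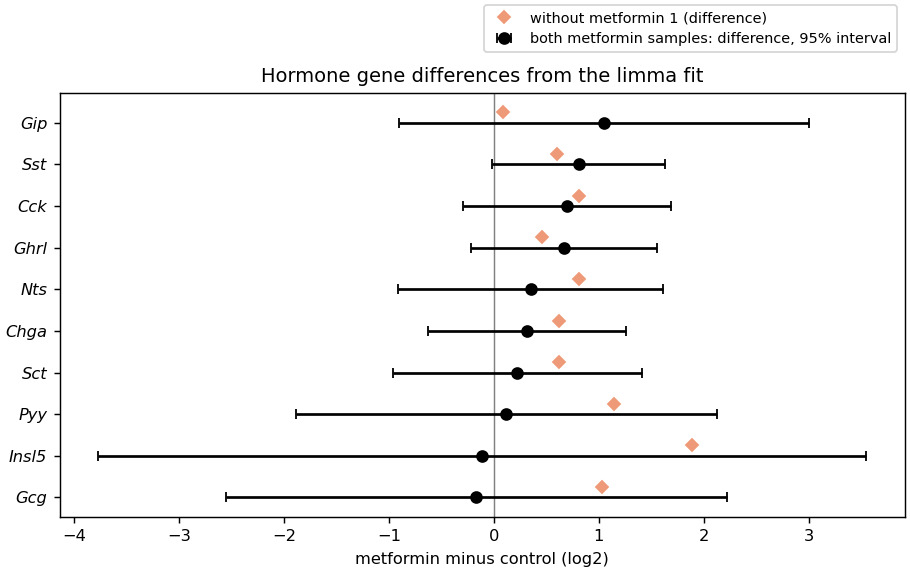
Metformin minus control (x axis, log2) for each hormone gene, with the fitted difference and its 95% interval (black) and the difference without metformin 1 (orange diamonds). Every interval includes 0, and without metformin 1 all 10 differences lie above 0.

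Metformin 2 was the highest of the 4 arrays in 7 of the 10 genes, against 19.8% of all genes tested. It lay above both controls in 9 of 10, Gip being the exception, against 28% of all genes. Without metformin 1 the differences of all 10 genes were above 0, at a median of 0.72, where the median of all genes was 0.02 and 53.1% of them were above 0. None passed in that fit either (smallest adjusted p of any gene in limma = 0.88), in which the lone metformin sample is assumed to vary like the controls. Metformin 1 was the lowest array for 3 of the 10 genes (28.4% of all genes) and the highest for 3 (38.5%), and it lay above both controls in 4 (42.7%) and below both in 3 (31.7%). Control 1 was the lowest array for 5 of the 10 (18% of all genes) and control 2 for 2 (36.9%). The values of 8 of the 10 genes spanned over 1 log2 unit, against 36% of all genes. The 3 genes lowest in metformin 1 and highest in metformin 2 were Gcg, Pyy and Insl5, an order found in 9.21% of all genes. Between control 1 and metformin 1 the 10 genes differed by a median of 0.99 in either direction, and all genes by 0.30. Between control 2 and metformin 2, the most alike pair of arrays, the medians were 0.59 and 0.21.

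In metformin 1 the proximal hormones Gip, Cck and Ghrl lay above both controls and the distal hormones Gcg, Pyy and Insl5 below both, while Sct and Nts lay between the controls. Markers of gut position differed in the same array. In the proximal marker list 8 of 10 genes were highest in metformin 1, against 38.5% of all genes tested. The 2 others were lowest in that array. Among the 8 was Fabp1, a fatty acid binding protein, which read 6.65 and 6.06 in the controls, and 8.48 and 5.82 with metformin. Ckmt1, a creatine kinase, read 6.46, 6.23, 7.37 and 6.37 in the same order. In the distal list 5 of 8 genes were lowest in metformin 1 (28.4% of all genes), with a median of -0.91 there and of 0.18 in metformin 2. Cubn, the receptor for intrinsic factor, was not among them and read 6.54, 5.90, 6.59 and 6.27. Colon markers had medians of -0.09 and 0.09 in the controls, and 0.10 and 0.08 with metformin. The fitted differences of the 7 measured colon markers still ran from -0.38 to 1.92. The colonic homeobox genes Hoxb13, Hoxd13 and Hoxd12 did not pass the filter on dim probes. The part of gut position in the hormone values was not tested.

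**Figure D4:**
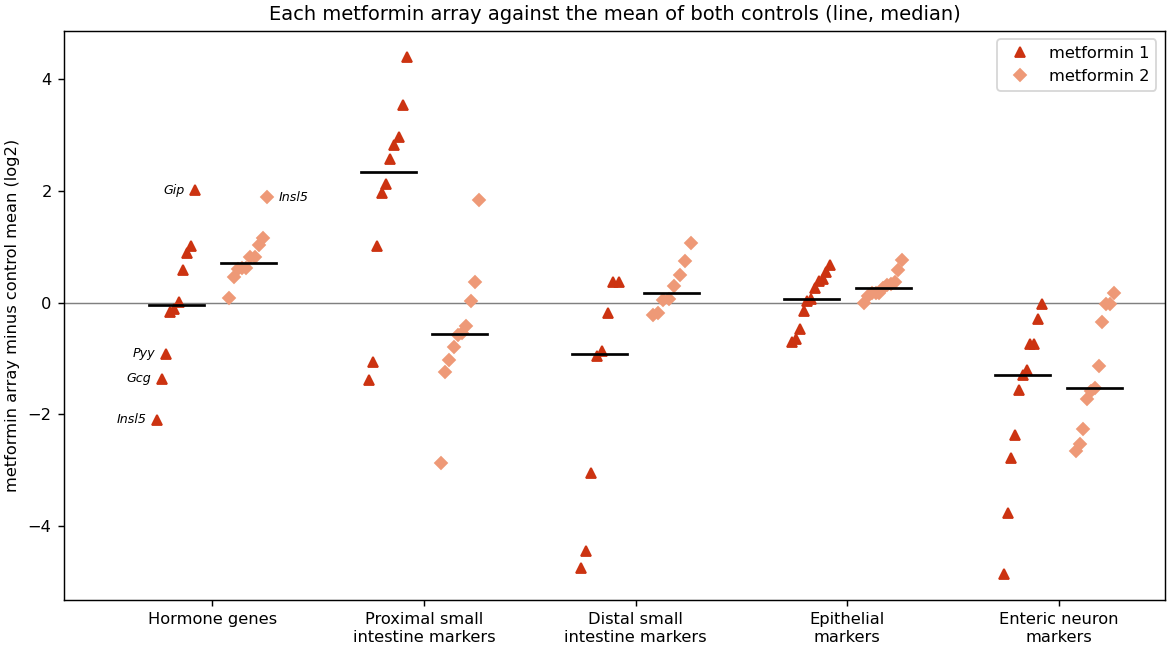
Each metformin array minus the mean of both controls (y axis, log2) for the 10 hormone genes and for the measured genes of 4 marker lists (x axis), with black lines at the medians. In metformin 1 (dark triangles) the hormone genes spread from Insl5 at -2.10 to Gip at 2.01 and proximal markers had a median of 2.35, while in metformin 2 (light diamonds) all 10 hormone genes lay above 0.

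Sst, Cck, Nts and Tac1 are also made by neurons, and the muscle wall carries the enteric nerves. All 11 measured neuron markers and all 9 measured smooth muscle markers had fitted differences below 0, with medians of -1.24 and -3.13, and every one of these genes was highest in control 1. The neuropeptide Gal read 1.42 and -2.17 in the controls, and -1.13 and -2.10 with metformin. Elavl4, a neuronal RNA-binding protein, read -1.57, -1.65, -1.91 and -1.63. Tagln, an actin-binding protein of smooth muscle, read 5.10, 1.63, 1.53 and 1.39, and the contractile gene Cnn1 read 4.90, 0.39, -1.09 and 0.12. Of the hormone genes, Sct and Nts were higher in control 1 than in control 2 by over 0.6 on the log2 scale. Sst and Cck were lowest in control 1, where neuron and muscle markers were highest. Ghrl, Gip and Chga were lowest in that array too. Epithelial markers had medians between -0.05 and 0.26 on all 4 arrays. Pancreas markers had medians of -0.05 and 0.05 in the controls, and 0.37 and 0.24 with metformin, and 5 of the 13 did not pass the filter. Of the 10 gastric markers, 3 were measured. The part of other cell types in the hormone values was not tested.

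None of the measured genes in the other 8 enteroendocrine lists passed the test, in either direction. The counts in these lists stand beside 57.6% of all genes with a difference above 0, 12.3% higher without overlap and 8.57% lower. Of 12 granin and processing genes, 7 had a fitted difference above 0 and 5 below, with a median of 0.10 (-0.16 in the authors' deposited table as it stood) and with overlap between the groups in every one. Chgb, the second chromogranin, read 4.88 and 5.18 in the controls, and 4.95 and 5.85 with metformin (difference 0.37, SE 0.42), an order of arrays like that of Chga. The granins Scg2 and Scg5 differed by 0.03 (SE 0.56) and 0.17 (SE 0.38). The prohormone convertase Pcsk1, which cuts proglucagon to GLP-1, differed by 0.22 (SE 0.44), and Pcsk2, which cuts it to glucagon in the islet, by -0.14 (SE 0.45). Cpe, which trims the cut ends, differed by -0.55 (SE 0.60) and the amidating enzyme Pam by -0.20 (SE 0.56). Mboat4, the acyltransferase that activates ghrelin, differed by -0.37 (SE 0.41), against 0.67 for Ghrl. Among 6 peptidases that break hormones down, with a median of 0.23 (-0.05 in the authors' deposited table as it stood), Dpp4, which inactivates GLP-1 and GIP, differed by 0.53 (SE 0.59), and by -0.03 without metformin 1.

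All 7 genes of serotonin synthesis and handling had differences above 0, with a median of 0.50, but 5 of them were highest in metformin 1 and the median was 0.00 without it. Tph1, the enzyme that commits enterochromaffin cells to serotonin, was lowest in that array and read 0.50 and 1.72 in the controls, and 0.46 and 2.53 with metformin (difference 0.38, SE 0.85). Of 10 other measured peptide genes, 5 had differences above 0. Tac1, the substance P gene, read 1.26, 2.30, 0.62 and 2.96, the order of arrays seen in Gcg (difference 0.01, SE 0.90). Iapp, which encodes amylin and is named after its values were seen, was higher without overlap, at -1.51 and -1.34 in the controls against -0.76 and -0.50 (difference 0.79, SE 0.29, unadjusted p in limma 0.0484). The opioid precursor Penk is named because it was at least 2-fold lower without overlap, which held for 2.32% of all genes. Penk read -1.74 and -5.68 in the controls, and -6.44 and -6.10 with metformin, most of the difference of -2.55 (SE 1.36) lying in control 1. The 13 measured genes of the vesicle release machinery had a median of 0.04.

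The transcription factors of the enteroendocrine lineage had a median of -0.09, with 9 of 20 above 0, 2 higher without overlap and 3 lower, counts near the 12.3% and 8.57% of all genes. Neurog3, the factor that starts the lineage in crypt progenitors, read -0.81 and -0.51 in the controls, and -1.97 and -0.91 with metformin. Its groups did not overlap, and the difference was -0.78 (SE 0.46). Sox4, a factor of early progenitors also named after its values were seen, differed by -0.94 (SE 0.33), also without overlap (unadjusted p in limma 0.0394, adjusted p = 0.999999). Isl1, a factor of several hormone cell types, was higher without overlap, by 0.37 (SE 0.28). Neurod1, which acts after Neurog3, differed by 0.28 (SE 0.56), Insm1 by -0.09 (SE 0.37) and Pax4 by -0.61 (SE 0.41). Rfx6, Nkx2-2 and Fev, the last a factor of the serotonin lineage, differed by 0.12, 0.10 and 0.09, and Pax6, which was above background on only 1 control array, by -0.10.

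Of the nutrient sensors 13 were measured, with a median of 0.27. Trpa1, an ion channel of enterochromaffin cells that responds to irritants, is named because it was at least 2-fold higher without overlap. That held for 0.628% of all genes. Trpa1 read -4.33 and -3.54 in the controls, and -2.72 and -3.14 with metformin (difference 1.01, SE 0.41, adjusted p in limma 0.999999). Its signals were dim, at 45.5 and 125 units in the controls, and 132 and 122 with metformin. The short-chain fatty acid receptor Ffar2 differed by -0.34 (SE 0.30), the lipid receptor Gpr119 by -0.07 (SE 0.41) and the bile acid receptor Gpbar1 by 0.13 (SE 0.29), while the fatty acid receptor Ffar1 did not pass the filter. Of 20 receptors for the hormones, 11 were measured, with a median of -0.05. Glp1r differed by 0.25 (SE 0.34) and Sctr by -0.09 (SE 0.48). Glp2r, the receptor for GLP-2, read -2.50, -3.69, -2.24 and -5.83, so that metformin 2 was lowest (difference -0.94, SE 1.30). These values are of the brighter of 2 probes, whose signal in metformin 2 was dim, at 18.9 units. With the mean of its probes the difference of Glp2r was -0.41 (SE 0.70). Rxfp4, the receptor for Insl5, did not pass the filter.

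The genes most like the hormone genes in pattern were sought for the 3 with the largest range, by the root mean square difference between values centred on each gene's mean over the 4 arrays, among 15358 other named genes. For Gcg these were Rgs1, Rtn4 and Itga2, at 0.065, 0.067 and 0.080, and 47 genes lay within 0.25. For Gip they were Dnah2, Aadac and Sphk1, at 0.041, 0.104 and 0.144, and 30 genes lay within 0.25. For Insl5 they were Mal, Bhmt and Paqr5, at 0.286, 0.297 and 0.367, and none of the 15358 lay within 0.25. Over 4 arrays such likeness is a description only.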

How the data were processed

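The scanner files hold spot intensity values that Agilent Feature Extraction 10.7.3.1 produced, background-subtracted and detrended within each array but not scaled between arrays, per the file headers. The authors' deposited table holds intensity equal to the raw median spot signal for all 39030 probes with 1 spot, and was used only as an alternative. Accessions were matched without versions to the RefSeq table of GRCm38.p6 (27508 of 39429 probes named). The array design's build differs from it, so probes are given no coordinates, and those of upstream windows are RefSeq's on GRCm38.p6.

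The log2 processed signal was centred on each array's 75th percentile. Spots marked as outliers were left out, spots of a probe were averaged, 47 probes lacking a usable spot on some array were dropped, and 26440 probes were kept that stood well above background in both samples of 1 group or more. The brightest probe of a gene entered limma 3.58.1 (lmFit, eBayes; R 4.3.3), tested two-sided on 2 residual and 2.43 prior degrees of freedom, with a Benjamini-Hochberg threshold of 0.05. Intervals are 95% and use both. The number of arrays limits the precision. The fit was tested on simulated data, in which at the measured spread between samples it missed small and moderate changes and found only part of the very large ones.

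The members, lists and tests were chosen with earlier results of these data known. Named were all 10 hormone genes, 29 list genes set by name (27 measured, 1 of them not reported here), enteroendocrine list genes at least 2-fold different without overlap, Iapp and Sox4 (chosen after their values were seen, for an unadjusted p under 0.05), for the 3 hormone genes of largest range the 3 genes most alike in pattern, and the 2 brightest genes of the neuron, muscle, proximal and distal lists. Alternatives were normexp (on the median signal, in place of the mean signal planned), quantile and median scaling, other filters and probe rules, a trended robust prior, the deposited table, a replicate block and leaving out each sample.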

Additional observations from a re-analysis of the deposited data

How the results depend on the processing

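No hormone gene, list gene or other gene passed the adjusted threshold under any of the 15 alternatives, with counts of 0 in each and 114 to 1566 genes at an unadjusted p under 0.05. Of 110 hormone gene differences under alternatives that kept all samples, 104 kept their sign, and with each sample left out 33 of 40 did. Many of the 104 were set in advance, since a change of filter, probe rule, prior or block left these fitted differences as they were. Median scaling moved the median of all genes from 0.06 to 0.19 and the deposited table as it stood moved it to -0.17. Of genes without overlap, 59% were the higher ones, against 83.7% with median scaling and 6.99% in the deposited table as it stood.

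In the deposited table as it stood, differences changed sign for Insl5 (0.09), Pyy (-0.15), Sct (-0.07), Cubn (-0.05), Fev (-0.17), Glp1r (0.00), Gpbar1 (-0.13), Nkx2-2 (-0.16), Pcsk1 (-0.05), Rfx6 (-0.18), Scg2 (-0.22), Scg5 (-0.09) and Tac1 (-0.22). There the hormone genes higher without overlap numbered 1, against 1.34% of all genes. The medians of receptors, vesicle genes, granins and hormone inactivation were -0.20, -0.21, -0.16 and -0.05 in that table. Scaled, it gave 0.35 for Insl5, 0.03 for Gpr119, 0.16 for Pax6 and a transcription factor median of 0.08. Median scaling gave 0.02 for Insl5, 0.06 for Gpr119, 0.04 for Insm1, 0.03 for Pax6 and 0.04 for Sctr. Normexp gave 0.45 for Insl5, 0.14 for Gpr119, 0.09 for Mboat4, 0.30 for Pax6 and 0.02 for Sctr, with medians of 0.11 for transcription factors and 0.14 for receptors. Quantile normalization gave 0.03 for Gpr119, 0.02 for Sctr and -0.04 for Tac1. Without a filter the receptor median was -0.24. The cause was not tested.

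With 1 sample left out, differences ranged from -1.37 to 1.03 for Gcg, -0.92 to 1.15 for Pyy, -2.10 to 1.89 for Insl5, -0.11 to 0.81 for Nts, -0.17 to 0.62 for Sct, 0.35 to 1.06 for Cck, 0.60 to 1.01 for Sst, 0.46 to 0.88 for Ghrl, 0.09 to 2.01 for Gip and 0.01 to 0.62 for Chga, and their median from -0.05 to 0.72. Hormone genes without overlap numbered 4 to 9 higher (9 without metformin 1, where 28% of all genes were) and 0 to 3 lower (3 without metformin 2, where 31.7% were). List medians ranged from -0.28 to -0.02 for transcription factors, -0.67 to 0.18 for other peptides, -0.06 to 0.24 for receptors, 0.00 to 0.76 for serotonin, -0.31 to 0.17 for vesicle genes, -0.26 to 0.30 for granins and processing, -0.03 to 0.58 for hormone inactivation and 0.06 to 0.47 for sensors. List gene ranges crossing 0 were -0.08 to 0.82 for Chgb, -1.30 to 0.20 for Cpe, -0.11 to 0.53 for Cubn, -0.03 to 1.09 for Dpp4, -0.54 to 2.12 for Fabp1, -4.46 to 0.07 for Fabp6, -0.14 to 0.32 for Fev, -3.03 to 0.56 for Gal, -0.04 to 0.54 for Glp1r, -2.73 to 0.86 for Glp2r, -0.44 to 0.31 for Gpr119, -0.41 to 0.23 for Insm1, -0.37 to 0.94 for Neurod1, -0.07 to 0.27 for Nkx2-2, -0.89 to 0.50 for Pam, -0.26 to 0.06 for Pax6, -0.29 to 0.73 for Pcsk1, -0.63 to 0.34 for Pcsk2, -0.12 to 0.37 for Rfx6, -0.65 to 0.71 for Scg2, -0.13 to 0.47 for Scg5, -0.66 to 0.48 for Sctr, -1.16 to 1.18 for Tac1 and -0.65 to 1.41 for Tph1.

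Same-numbered samples deviated together (r = 0.563 across genes). All genes differed by a median of 0.30 between control 1 and metformin 1 and of 0.21 between control 2 and metformin 2. These medians were below those within the groups, 0.44 between the controls and 0.49 between the metformin samples. With 2 pairs the numbers are still not taken to pair the samples. With the replicate block 0 genes passed (smallest adjusted p in limma = 0.634), and the hormone differences were unchanged, with SEs of 0.21 for Sst and 0.49 for Gcg.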
